A study of Homo sapiens with 22 samples.

Results

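WNT7A, CCBE1 and PTHLH encode secreted factors, and their loci were taken as all deposited regions of enriched signal within 50 kb of the 3 gene bodies (GENCODE annotation, hg19 coordinates). The 22 lists held 261 such regions, 66 at WNT7A, 95 at CCBE1 and 100 at PTHLH. The lists came from 3 human prostate cancer cell lines. PC3 lacks the androgen receptor, NCI-H660 is a neuroendocrine line, and LNCaP is a luminal line that depends on that receptor. In PC3, FOXA2 was immunoprecipitated after vehicle, ORY-1001 (10 µM, 4 h) or C12 (0.5 µM, 4 h), both LSD1 inhibitors, JUN and FOSL1 after negative control siRNA (siNC) or siFOXA2, and H3K27ac and ATAC were profiled in vehicle-treated cells. In NCI-H660, FOXA2 was profiled after vehicle or ORY-1001 (10 µM, 4 h), JUN after siNC or siFOXA2, and H3K4me2 and ATAC after vehicle. In LNCaP, JUN was profiled after siNC or siFOXA1. FOXA2 and JUN were profiled in vehicle-treated cells of the FOXA2-overexpressing derivative LNCaP_FOXA2OE. JUN was also profiled in vehicle-treated cells titled LNCaP_FOXA2K265R, whose cell line label also reads LNCaP_FOXA2OE. K265R is a FOXA2 point mutant that the paper calls methylation-deficient and overexpressed in LNCaP cells. The overexpressing cells were a stable lentiviral population, so their FOXA2 did not come from the cells' own gene control. A further 2 vehicle PC3 FOXA2 ChIPs are called the other FOXA2 ChIPs. For these and for LNCaP_FOXA2K265R, the ChIP target stood in the title only, with no antibody label. Each remaining arm had 1 list, so no difference between arms could be tested, and intervals given are 95% Wilson intervals for counting error only.

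WNT7A is a secreted WNT ligand that signals through Frizzled receptors and, in endothelium, through the RECK and ADGRA2 co-receptors. CCBE1 is a secreted matrix-binding protein that helps the protease ADAMTS3 to process the lymphangiogenic factor VEGFC. PTHLH encodes parathyroid hormone-related protein, which acts on the receptor PTH1R and is known for its part in bone remodelling and in bone metastasis. FOXA2 is a forkhead pioneer factor that opens chromatin at enhancers, JUN and FOSL1 are subunits of the AP-1 dimer, and LSD1 is a lysine demethylase. H3K27ac marks active enhancers and promoters, and H3K4me2 marks both as well.

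All 3 genes lie on the minus strand. WNT7A (ENSG00000154764) spans chr3:13857755-13921568, CCBE1 (ENSG00000183287) spans chr18:57098171-57364894 and PTHLH (ENSG00000087494) spans chr12:28111017-28125666. WNT7A has 1 annotated protein-coding start, CCBE1 has 4 between positions 57364634 and 57364894, and PTHLH has 9 spread from position 28122427 to 28125666. Distances below are to the nearest of these starts, with upstream and downstream read along the gene.

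The sequences that carry the results are the windows of 201 bases centred on 5 PC3 regions, given 5′ to 3′ on the plus strand of hg19. Capitals mark 7-base matches, on either strand, to a forkhead motif (TGTTTAC or TGTTTAT or TGTTTGC or TGTTTGT or TATTTAC or TATTTAT or TATTTGC or TATTTGT) or to the AP-1 motif (TGACTCA or TGAGTCA). The first 2 windows are those of the vehicle FOXA2 regions with the highest score at WNT7A and at PTHLH.
WNT7A intron 3, chr3:13882626-13882826: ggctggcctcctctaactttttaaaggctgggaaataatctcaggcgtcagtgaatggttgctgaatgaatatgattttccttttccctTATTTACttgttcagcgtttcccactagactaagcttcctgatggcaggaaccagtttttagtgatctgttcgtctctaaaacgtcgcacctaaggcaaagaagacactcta
PTHLH upstream, chr12:28174783-28174983: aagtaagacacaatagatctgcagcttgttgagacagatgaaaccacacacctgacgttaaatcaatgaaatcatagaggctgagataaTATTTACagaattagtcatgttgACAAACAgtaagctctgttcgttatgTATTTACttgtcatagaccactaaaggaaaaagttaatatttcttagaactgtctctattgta
The WNT7A window held 1 forkhead match and no AP-1 match. The PTHLH window held 3 forkhead matches and no AP-1 match. The next window is that of a PTHLH region where FOXA2 was lost under both inhibitors.
PTHLH 9.29 kb upstream, FOXA2, chr12:28134843-28135043: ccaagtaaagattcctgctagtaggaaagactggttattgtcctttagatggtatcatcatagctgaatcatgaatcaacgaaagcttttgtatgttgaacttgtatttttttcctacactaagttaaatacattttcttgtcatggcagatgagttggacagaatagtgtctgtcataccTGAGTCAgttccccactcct
It held 1 AP-1 match and no forkhead match. The last 2 windows, chosen after their values were seen, are those of JUN regions kept under siFOXA2.
WNT7A downstream, JUN, chr3:13843485-13843685: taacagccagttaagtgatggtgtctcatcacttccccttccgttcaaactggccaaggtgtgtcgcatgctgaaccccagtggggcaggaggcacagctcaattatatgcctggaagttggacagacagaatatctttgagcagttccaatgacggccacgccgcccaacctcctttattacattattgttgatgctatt
PTHLH intron 4, JUN, chr12:28119879-28120079: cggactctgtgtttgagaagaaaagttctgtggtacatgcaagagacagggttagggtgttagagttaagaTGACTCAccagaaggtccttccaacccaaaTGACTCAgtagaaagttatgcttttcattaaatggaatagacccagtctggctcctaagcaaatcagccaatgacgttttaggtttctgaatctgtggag
The PTHLH window held 2 AP-1 matches and the WNT7A window none, although the WNT7A region held 1 outside the window and the FOSL1 region at that place held 1 at its centre. Neither window held a forkhead match.

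The largest FOXA2 signal of the 3 loci lay upstream of PTHLH. The vehicle PC3 region at chr12:28174653-28175114, in intergenic sequence 49.2 kb upstream of the nearest PTHLH start, had a deposited score of 4139, above 99.9% of the 24038 regions of its list. The score is a value that the peak caller gave to a region, with no common scale between lists. The same place scored 872 after ORY-1001 and 993 after C12, and it scored 3216 and 3175 in the other FOXA2 ChIPs. Its percentile in the list was 97.6 after ORY-1001 and 98.3 after C12. PTHLH had 2 further vehicle regions, at chr12:28134736-28135151 (9.28 kb upstream, score 280) and at chr12:28117137-28117364 (5.18 kb downstream, in intron 4 of the MANE transcript, score 93). Neither was kept after ORY-1001 or C12.

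CCBE1 held 4 vehicle FOXA2 regions in PC3, the most of the 3 genes in number. Its window was also the longest, 366724 bp against 163814 bp at WNT7A and 114650 bp at PTHLH. Per 100 kb it held 1.09, below the 2.62 at PTHLH and above the 0.610 at WNT7A. The region at chr18:57357348-57357732, in intron 2 and 7.09 kb downstream of the start, scored 423 and was kept after both inhibitors, with scores of 75 after ORY-1001 and 163 after C12. The regions at chr18:57328684-57328961 (35.8 kb downstream, intron 2, score 121), at chr18:57358324-57358557 (6.19 kb downstream, intron 2, score 62) and at chr18:57411553-57411805 (46.8 kb upstream, intergenic, score 90) were lost after both. Only the highest-scoring of the 4 was therefore still listed after either compound. WNT7A held 1 vehicle region, at chr3:13882597-13882856 in intron 3, 38.8 kb downstream of the start, with a score of 125. It was listed after ORY-1001 with a score of 38 and was not listed after C12.

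Across the 3 loci, ORY-1001 kept 3 of 8 vehicle regions (37.5%, interval 13.7 to 69.4%) and C12 kept 2 of 8 (25%, interval 7.15 to 59.1%). The whole vehicle list lost 63.2% of its regions to ORY-1001 and 70.4% to C12, so the 5 and 6 member regions lost stood close to the background. With equal numbers of top-scoring regions from both lists, 2 of 3 were kept after either compound (66.7%). The whole-list share at equal numbers was not computed for either compound, so this 66.7% has no background beside it. The same vehicle list was the control for both, and the compounds were given at different doses, so their values are set side by side without a comparison. The C12 list was also the shortest, with 8352 regions against 13732 for ORY-1001. The inhibitor lists held regions absent from vehicle only at PTHLH, where ORY-1001 added 4 and C12 added 2, against 35.6% and 14.9% of regions that were new in the whole lists. Of the 4 after ORY-1001, 3 scored 23, 49 and 60, and the other, at chr12:28156328-28156598, scored 428. The 2 after C12 scored 39 and 48.

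**Figure D1:**
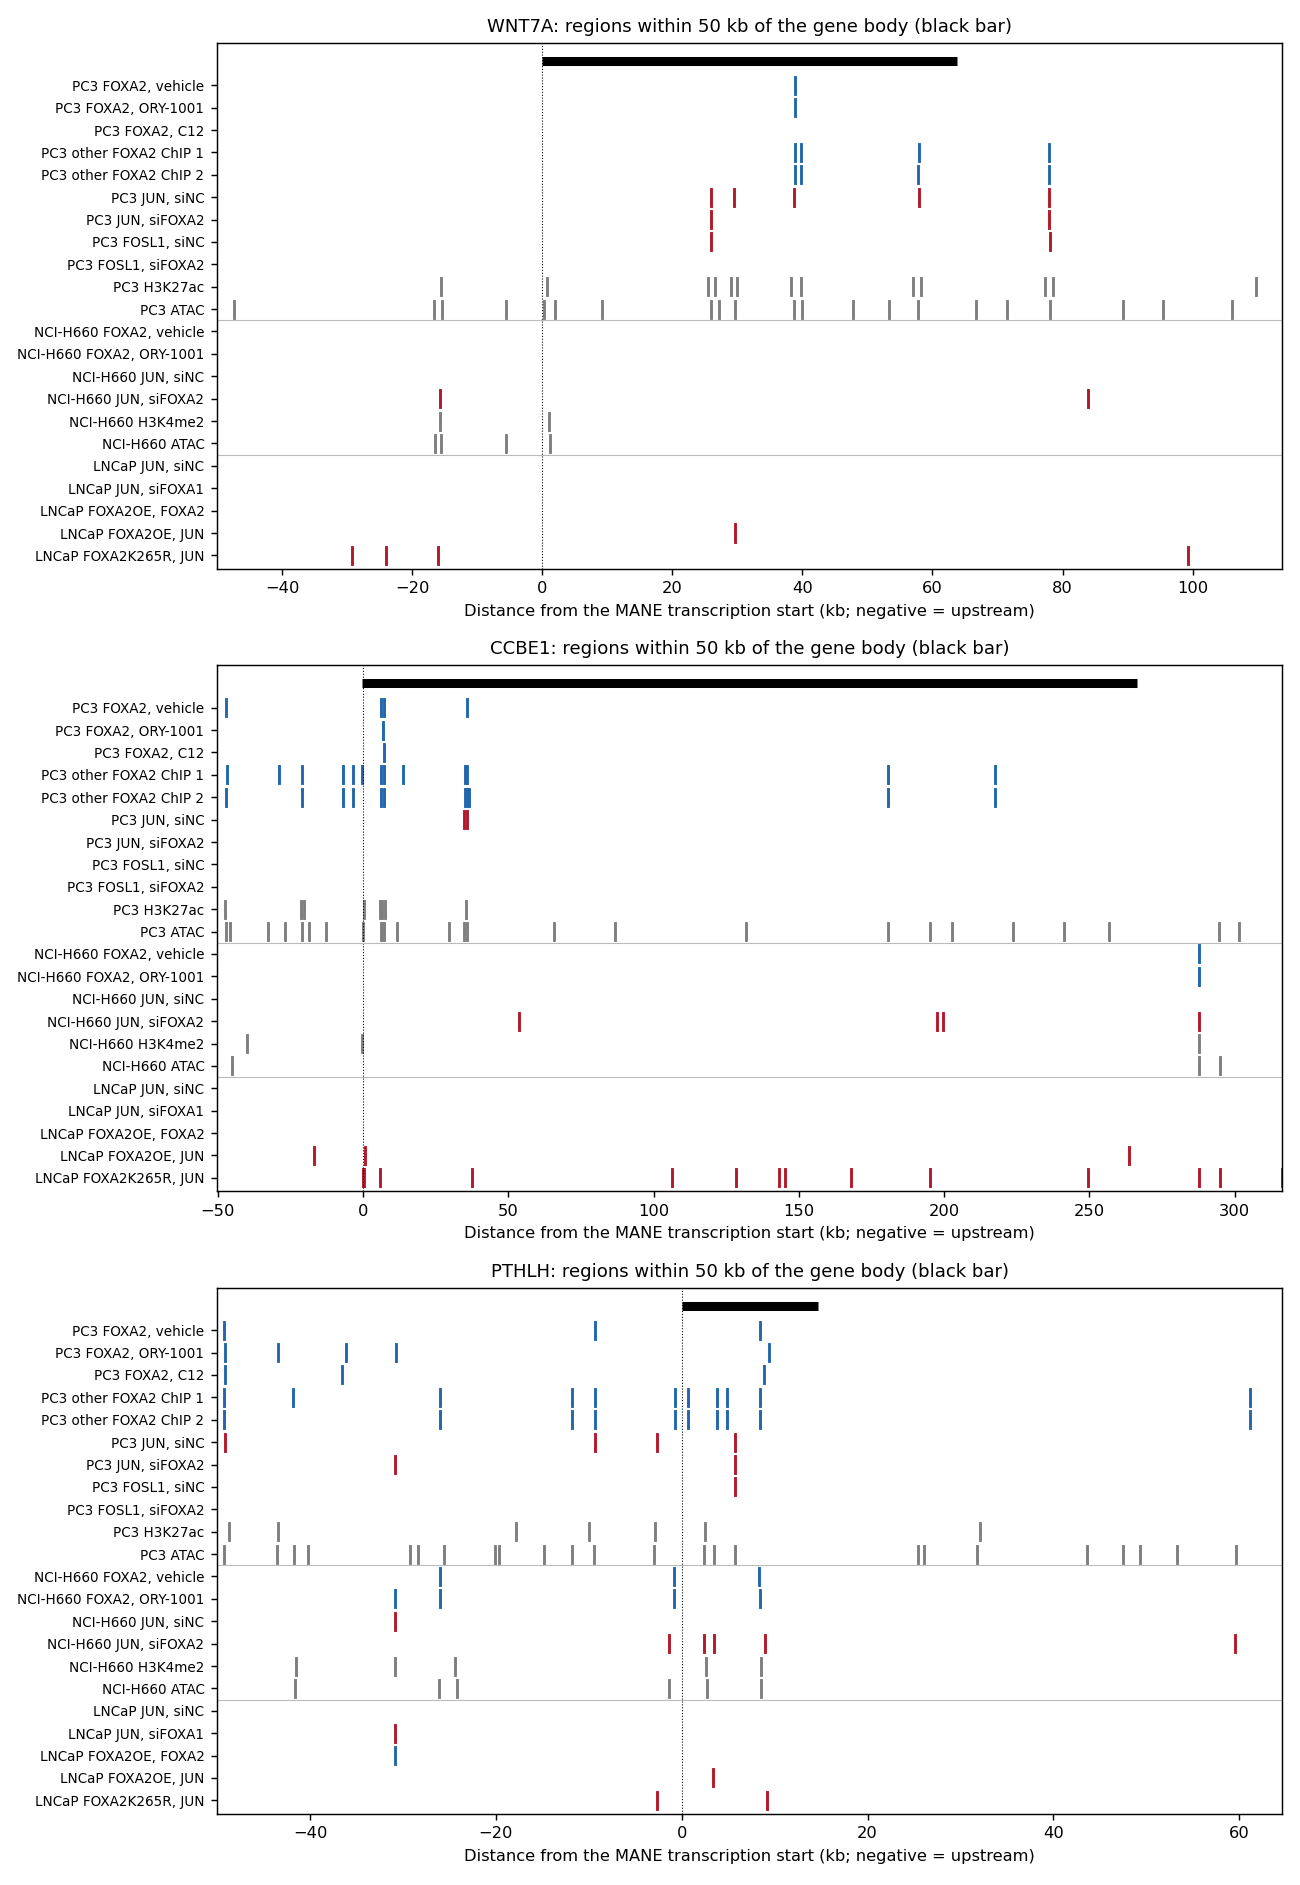
Deposited regions at WNT7A, CCBE1 and PTHLH, drawn by distance from the MANE transcription start in kb, with 1 row per list and 1 tick per region (blue, FOXA2; red, JUN or FOSL1; grey, ATAC or histone mark). The black bar is the gene body, and the PC3 JUN ticks under siFOXA2 are 2 at WNT7A, 0 at CCBE1 and 2 at PTHLH.

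How often a region was kept rose with its score. Over the whole vehicle list, ORY-1001 kept 83.7% of the top decile by score and C12 kept 89.0%. For the decile that held the WNT7A region (scores 119 to 150) the shares were 24.9% and 15.4%. The PTHLH region 49.2 kb upstream lay in the top decile, and the kept CCBE1 region in decile 9, of which 67.7% was kept after ORY-1001 and 63.8% after C12. The PTHLH region 9.28 kb upstream lay in decile 8, where 55.9% and 45.4% were kept, and it was lost after both. The other 4 regions lost after ORY-1001 came from deciles in which at most 24.9% was kept.

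The other FOXA2 ChIPs listed more places. They held 28 and 25 member regions, 4 and 4 at WNT7A, 13 and 11 at CCBE1 and 11 and 10 at PTHLH. All 8 vehicle regions were in both (interval 67.6 to 100%), against 90.4% of the whole vehicle list. In the other direction, 8 of 28 and 8 of 25 were in the vehicle list, 28.6% and 32.0%, against 28.6% and 34.8% of the whole lists. The 2 lists shared 24 member regions, which was 85.7% of the first and 96.0% of the second, against 73.4% and 91.3% of the whole lists. Their highest scores were 500 and 467 at WNT7A, on the vehicle region in intron 3, and 1270 and 1254 at CCBE1, on the kept region in intron 2. Places listed by both and not by the vehicle ChIP included intron 3 of WNT7A at chr3:13881598-13882017, and chr12:28124848-28125220, over a PTHLH start, where they scored 167 and 145.

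**Figure D2:**
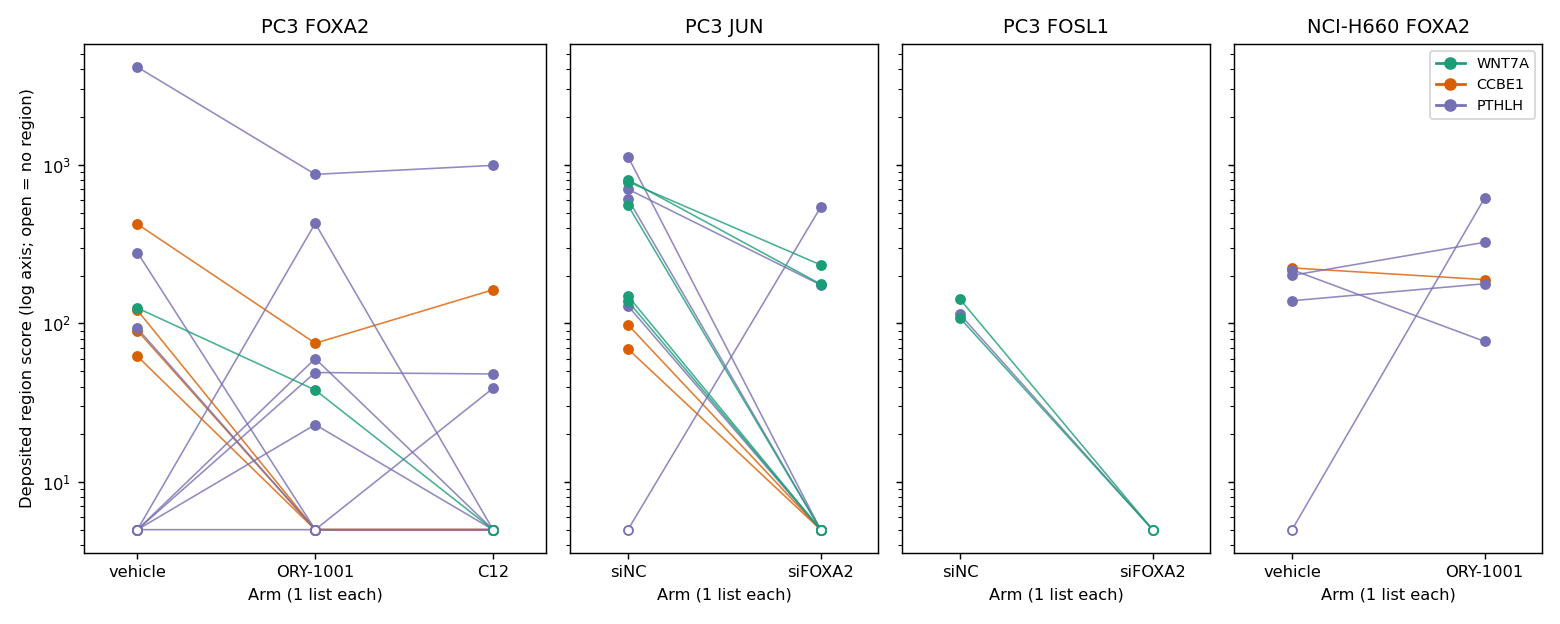
Deposited region score (log axis) of each merged site in the arms of the PC3 FOXA2, JUN and FOSL1 and the NCI-H660 FOXA2 ChIPs. Each line is 1 site, coloured by locus, and open symbols at the bottom mark arms with no region there, as for all 3 FOSL1 sites under siFOXA2. Scores have no common scale between lists, so slopes are not changes in signal.

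JUN occupied 11 places at the 3 loci in PC3 cells given siNC, 5 at WNT7A, 2 at CCBE1 and 4 at PTHLH. The WNT7A regions scored 806 (77.9 kb downstream, beyond the 3′ end of the gene), 556 (57.8 kb), 149 (38.9 kb), 138 (29.6 kb) and 783 (26.0 kb), the last 4 in intron 3. The PTHLH regions scored 703 in intron 4 (2.45 kb downstream), and 129, 1127 and 610 upstream of the gene (2.63, 9.29 and 49.3 kb). Those at CCBE1 were lower, with scores of 69 and 98, about 35.8 and 34.8 kb downstream in intron 2.

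After siFOXA2, 3 of the 11 JUN regions were kept (27.3%, interval 9.75 to 56.6%) and 8 were lost, beside 86.6% lost over the whole list of 23890 regions. With equal numbers of top-scoring regions, 3 of 6 were kept (50%), for which no whole-list share was computed. The kept regions were chr3:13843292-13843878 and chr3:13895421-13895773 at WNT7A and chr12:28119807-28120152 at PTHLH. Their scores were 806 after siNC and 177 after siFOXA2, 783 and 234, and 703 and 175. As percentiles within each list these were 97.0 and 77.1, 96.8 and 84.4, and 95.9 and 76.8. CCBE1 had no JUN region left. The lost set included the highest JUN score of the 3 loci, 1127 at PTHLH 9.29 kb upstream, and the 610 at the strong FOXA2 place 49.3 kb upstream. Of the 6 JUN regions in the top decile by score 3 were kept, where the whole list kept 61.9%, and of the 5 in lower deciles 0 were kept, where it kept 3.98 to 4.23%. The siFOXA2 list added 1 region, at the PTHLH place chr12:28156341-28156597 with a score of 540, against 21.5% of its 4081 regions that were new.

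**Figure D3:**
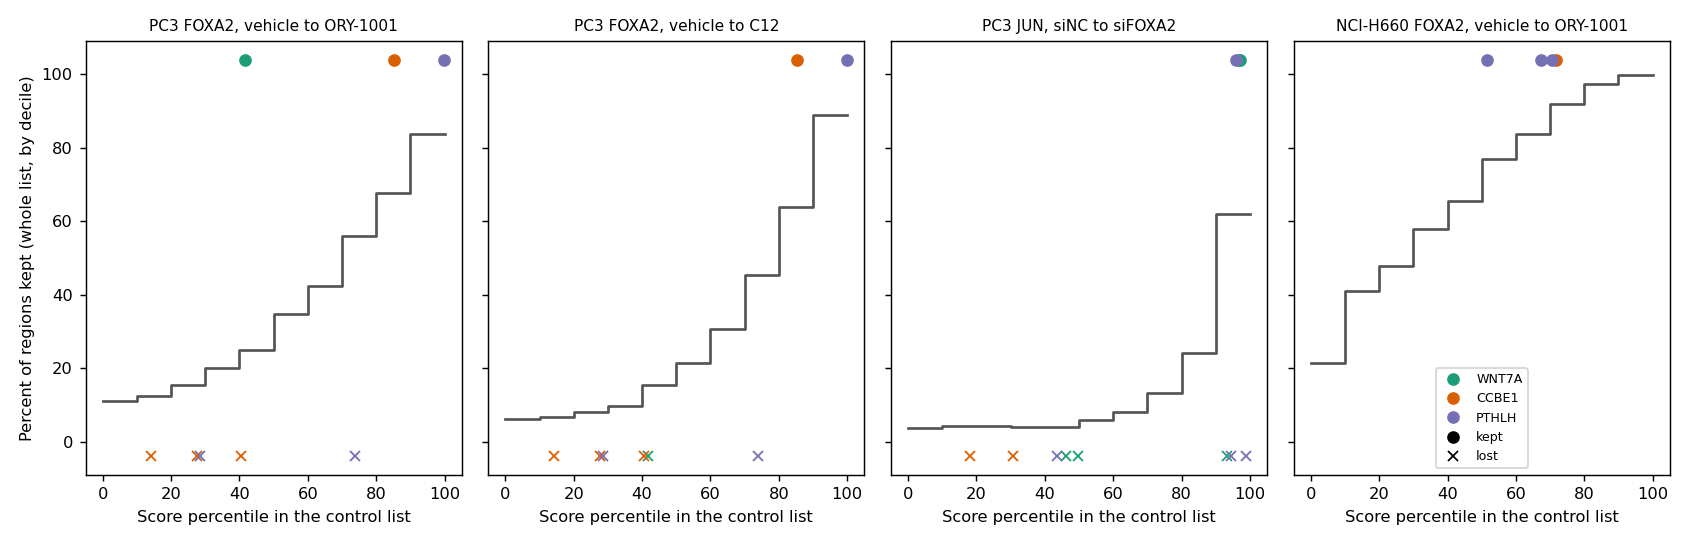
Percent of all regions kept in each decile of the control list by score (step line) for 4 contrasts, with the member regions that were kept (circles, drawn above 100) and lost (crosses, drawn below 0) at their score percentile. The 3 JUN regions kept under siFOXA2 all lie in the top decile, beside 3 that were lost.

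FOSL1 occupied 3 places at the 3 loci, and these were the places of the 3 kept JUN regions. It scored 142 and 108 at WNT7A (77.9 and 26.0 kb downstream) and 114 at PTHLH (2.45 kb downstream). No FOSL1 region remained at any of the 3 loci after siFOXA2, against 93.1% of 3843 regions lost in the whole list, and none was new, against 81.5% of the 1538 in the siFOXA2 list. The partners of kept and lost JUN regions were compared after these values were seen. FOSL1 overlapped 3 of 3 kept and 0 of 8 lost JUN regions, and over the whole list it overlapped 51.6% of kept and 4.36% of lost ones (62.1% and 23.8% within the top decile by score). The vehicle FOXA2 list overlapped 0 of 3 kept and 4 of 8 lost member regions, whereas over the whole list it overlapped 60.9% of kept and 42.0% of lost JUN regions. The WNT7A place 77.9 kb downstream, 1 of the 3, did hold a region in both other FOXA2 ChIPs, with scores of 251 and 124.

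FOXA2 and JUN met at 4 of the 8 vehicle FOXA2 regions (50%, interval 21.5 to 78.5%), against 44.3% of the whole list. In the other FOXA2 ChIPs, 7 of 28 (25%) and 7 of 25 (28%) met JUN, and the share over those whole lists was not computed. Those lists were longer, with 77822 and 62714 regions against 24038. The 4 vehicle regions with JUN lay in WNT7A intron 3, 35.8 kb downstream at CCBE1, and 9.28 and 49.2 kb upstream of PTHLH. At all 4, JUN was lost after siFOXA2, as were 86.6% of all JUN regions. FOXA2 was lost after both inhibitors at 2 of them, after C12 alone at 1 and after neither at 1. No place of the 3 loci was listed in every PC3 FOXA2 and JUN arm. The PTHLH place 49.3 kb upstream came nearest, with FOXA2 in all 5 FOXA2 lists and JUN in siNC.

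Forkhead matches within 100 bp of the centre were present in 7 of 8 vehicle FOXA2 regions (87.5%, interval 52.9 to 97.8%), and in 77.3% of all regions in that list. The exception was the PTHLH region 9.28 kb upstream, which held an AP-1 match and was 1 of the 4 shared with JUN. AP-1 matches were present in 3 of the 8, against 26.4% of the list. Of the 11 JUN regions, 6 held an AP-1 match (54.5%, interval 28.0 to 78.7%), against 49.5% of the list, and 3 held a forkhead match, against 43.5%. These 3 were the CCBE1 regions and the PTHLH region 49.3 kb upstream, all lost after siFOXA2, and over the whole list 32.3% of kept and 45.2% of lost JUN regions held one. Both matches occurred together in 2 FOXA2 and 1 JUN member regions, against 19.6% and 19.8% of the lists. The strong PTHLH place had no AP-1 match in its window although JUN was listed there. A match is a description of the letters only.

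In PC3, most FOXA2 and JUN regions over the 3 loci were accessible, and most overlapped H3K27ac. ATAC overlapped 7 of 8 FOXA2 regions (87.5%, interval 52.9 to 97.8%) and 11 of 11 JUN regions (interval 74.1 to 100%), against 89.3% and 96.0% of the lists. The 1 FOXA2 region without ATAC was that in PTHLH intron 4. H3K27ac overlapped 5 of 8 FOXA2 regions (62.5%, interval 30.6 to 86.3%) and 8 of 11 JUN regions, against 58.7% and 77.3%. The overlap was often by an edge. In an inspection made after these values were seen, the centre of all 5 WNT7A JUN regions lay in a gap between 2 H3K27ac regions, each within 1 kb. Over the 3 loci this held for 6 of 11 JUN regions (54.5%, interval 28.0 to 78.7%), against 24.9% of the whole list. It held for 4 of 8 FOXA2 regions (50%, interval 21.5 to 78.5%), against 22.8%. By locus the JUN counts were 5 of 5 at WNT7A, 0 of 2 at CCBE1 and 1 of 4 at PTHLH. For FOXA2 they were 1 of 1, 2 of 4 and 1 of 3.

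**Figure D4:**
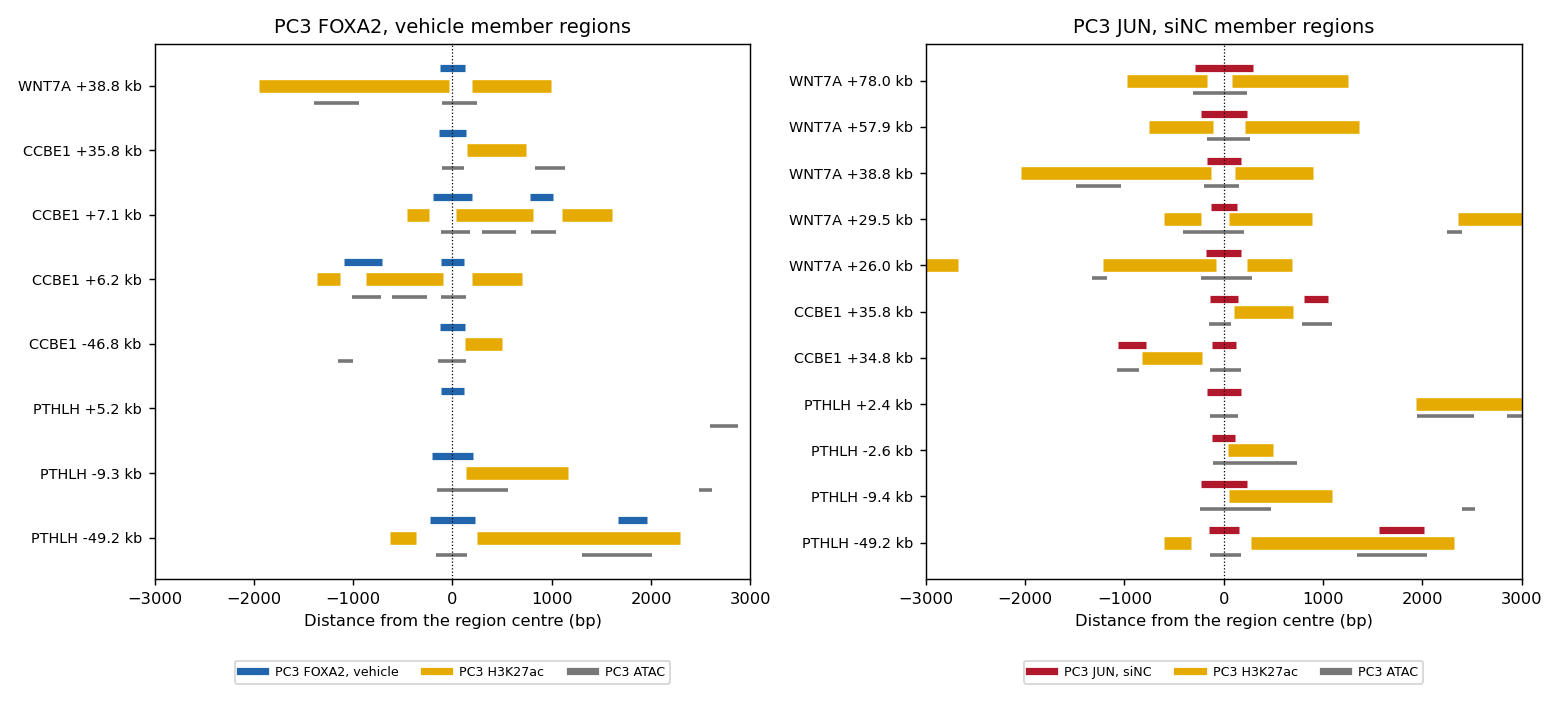
PC3 H3K27ac (yellow) and ATAC (grey) regions within 3 kb of the centre of each vehicle FOXA2 (blue, 8 rows) and siNC JUN (red, 11 rows) member region, against distance in bp along the genome. Rows are named by gene and distance to the nearest start, and all 5 WNT7A JUN centres sit between 2 H3K27ac regions.

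Each of the 3 genes had H3K27ac and ATAC regions within 1 kb of a start in PC3. At PTHLH, H3K27ac (score 5253, above 99.8% of that list) and ATAC (score 4758) overlapped chr12:28123039-28123577, which lies over a start. Neither was listed at chr12:28124848-28125220, over another start, nor within 1 kb of the MANE start at 28125666. WNT7A had H3K27ac (score 1546) and ATAC (785) within 1 kb of its start, and CCBE1 had H3K27ac (300) and ATAC (964). No vehicle FOXA2 and no JUN or FOSL1 region of PC3 lay within 1 kb of any start of the 3 genes, whereas the other FOXA2 ChIPs each had 3 at PTHLH and 1 of them had 1 at CCBE1. The factor site nearest to a start was, at CCBE1, chr18:57364698-57365066, over a start in the UTR, with scores of 39 in 1 other FOXA2 ChIP and 33 in the LNCaP FOXA2K265R JUN list. At PTHLH it was chr12:28123039-28123577, over a start in the UTR, with a score of 33 for JUN in NCI-H660 given siFOXA2. At WNT7A it was chr3:13937094-13937687, 15.8 kb upstream in intergenic sequence, with JUN scores of 23 in NCI-H660 given siFOXA2 and 49 in LNCaP FOXA2K265R.

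In NCI-H660, FOXA2 had no region at WNT7A, 1 at CCBE1 and 3 at PTHLH. The CCBE1 region, chr18:57076642-57076897, lay beyond the 3′ end of the gene and scored 224 after vehicle and 189 after ORY-1001. At PTHLH, chr12:28117184-28117411 in intron 4 scored 201 after vehicle and 325 after ORY-1001. At chr12:28126371-28126585 (0.812 kb upstream) the scores were 139 and 178, and at chr12:28151588-28151845 (26.1 kb upstream) 218 and 77. As percentiles within each list these were 67.5 and 83.1, 51.5 and 63.2, and 70.6 and 28.7. All 4 were kept (interval 51.0 to 100%), where the whole list lost 31.6% and the deciles by score that held these regions kept 77.1 to 92.0%. ORY-1001 added 1 region at chr12:28156383-28156585 with a score of 619, against 29.1% new in the list. All 4 vehicle regions held a forkhead match, against 75.9% of the list, and 0 held an AP-1 match, against 6.30%.

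Only 1 of the 8 PC3 vehicle FOXA2 regions, that in PTHLH intron 4, was also listed in NCI-H660 (12.5%, interval 2.24 to 47.1%), against 11.1% of the whole list. It was lost in PC3 after both inhibitors and kept in NCI-H660 after ORY-1001. Of the 4 NCI-H660 FOXA2 regions, 3 lay in each of the other FOXA2 ChIPs of PC3 (75%, interval 30.1 to 95.4%), against 31.5% and 28.4% of the NCI-H660 list. These were the 3 at PTHLH, and the CCBE1 region was in neither. None of the 11 PC3 JUN regions was listed in NCI-H660 siNC (interval 0 to 25.9%), against 12.8% of the list. Of 71 PC3 ATAC regions at the loci, 9 were also accessible in NCI-H660 (12.7%, interval 6.81 to 22.4%), against 21.5% of all. By locus these were 5 of 21 at WNT7A, 1 of 26 at CCBE1 and 3 of 24 at PTHLH. As a check of the lines, promoters of 5 of 6 neuroendocrine, 5 of 5 mesenchymal or basal and 3 of 4 luminal marker genes were accessible in PC3, and 6, 4 and 3 in NCI-H660. CHGA, a neuroendocrine marker, was not accessible in PC3, nor were ANXA1, a mesenchymal or basal marker, in NCI-H660 and KLK3, a luminal marker, in either line.

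JUN in NCI-H660 went the other way in number. After siNC it had 1 region at the 3 loci, the recurrent PTHLH place at chr12:28156312-28156624 (score 529), and that region was lost after siFOXA2, against 52% lost in the list. After siFOXA2 there were 11 regions, 2 at WNT7A, 4 at CCBE1 and 5 at PTHLH, all new, against 85.2% new in a list that grew from 18401 to 59452 regions. The scores of these 11 ran from 21 to 88, the highest at chr12:28116393-28116992 over a coding exon of PTHLH. The highest at WNT7A was 26, at chr3:13837439-13837745 beyond the 3′ end, and at CCBE1 2 intronic regions, chr18:57164955-57165262 and chr18:57310856-57311378, scored 39. Of these 11, 6 lay on NCI-H660 ATAC regions (54.5%, interval 28.0 to 78.7%), against 31.5% of that list. An AP-1 match within 100 bp of the centre was present in 0 of the 11, against 4.99% of that list and 13.8% of the siNC list. At the CCBE1 place chr18:57076642-57077108, the new JUN region (score 21, percentile 9.35) overlapped ATAC and H3K4me2 regions. It also overlapped the FOXA2 regions of the vehicle and ORY-1001 arms, and FOXA2 was not profiled in siFOXA2 cells.

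In LNCaP, JUN had no region at the 3 loci after siNC and 1 after siFOXA1, at chr12:28156382-28156583 with a score of 523. The siFOXA1 list lost 50.4% of siNC regions and 38.6% of its own regions were new. FOXA2 in LNCaP_FOXA2OE had 1 region, at the same PTHLH place, in a list of 2500 with no score. JUN in LNCaP_FOXA2OE had 5 regions, 1 at WNT7A in intron 3 (29.6 kb downstream, score 56), 3 at CCBE1 (scores 54, 50 and 50) and 1 over a PTHLH start (score 111). All 5 were absent from siNC, against 98.2% of the LNCaP_FOXA2OE list, and 82.1% of siNC regions were lost in it. The WNT7A region was the only 1 of the 5 on a PC3 JUN region, against 4.01% of the list. JUN in LNCaP_FOXA2K265R had 20 regions, 4 at WNT7A, 14 at CCBE1 and 2 at PTHLH, and kept 1 of the 5 (20%, interval 3.62 to 62.4%), against 63% lost and 81.3% new in the list. Its highest scores were 54 at WNT7A (chr3:13945457-13945678, intergenic), 99 at CCBE1 (chr18:57069704-57069902, intergenic) and 89 at PTHLH (chr12:28116262-28116624, a coding exon). AP-1 matches within 100 bp of the centre were present in 1 of the 5 LNCaP_FOXA2OE JUN regions, against 2.38% of the list. In LNCaP_FOXA2K265R they were present in 2 of the 20, against 4.09%. The siNC cells had been given siRNA and the derivatives vehicle, and parental LNCaP had no vehicle JUN list. Cells and siRNA treatment therefore cannot be told apart when the derivatives are set beside siNC. The siNC list holds coordinates alone, so whether it was processed together with the derivatives' lists is not known.

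The place at chr12:28156312-28156624, 30.8 kb upstream of PTHLH, recurred in 7 of the 22 lists from all 3 lines. It was listed for FOXA2 in PC3 and NCI-H660 after ORY-1001 and in LNCaP_FOXA2OE, for JUN in PC3 after siFOXA2, in NCI-H660 after siNC and in LNCaP after siFOXA1, and for H3K4me2 in NCI-H660 (score 228). Where scored for a factor, it ranged from 428 to 619. It was not on an ATAC region in either line, and was absent from the vehicle FOXA2 lists of both lines and from the other FOXA2 ChIPs. It gave the highest-scoring new PTHLH regions after ORY-1001 in both lines and after siFOXA2 in PC3, and the 1 JUN region of NCI-H660 siNC. No list of places prone to artefact signal in hg19 was used, and whether this is such a place was not tested.

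**Figure D5:**
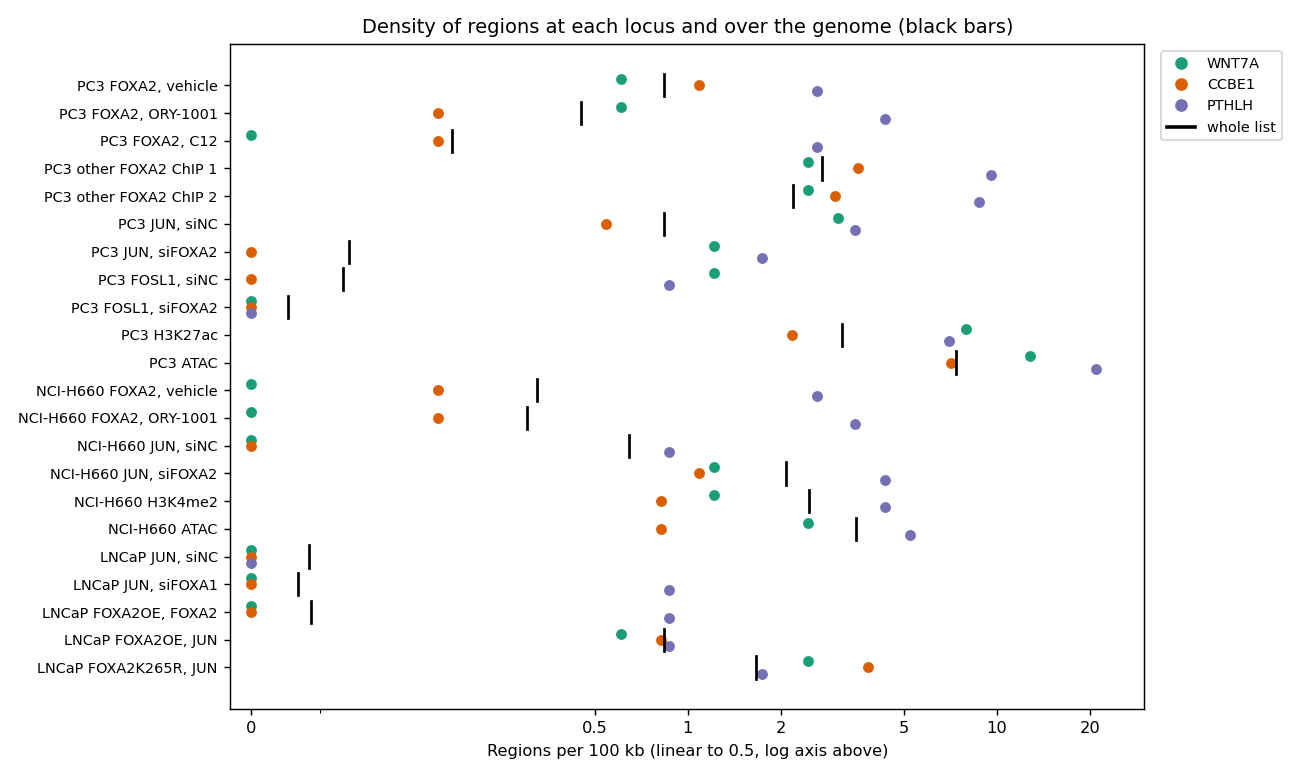
Regions per 100 kb at each locus (coloured points) and over the known bases of the genome (black bars) for all 22 lists, on an axis linear up to 0.5 and logarithmic above. PTHLH exceeds the whole-list density in all lists but LNCaP JUN siNC and PC3 FOSL1 siFOXA2, in which it has no region. With its short window, 1 region is already 0.872 per 100 kb.

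Against all protein-coding genes, PTHLH was dense in FOXA2, JUN and ATAC regions of PC3. It had 2.62 vehicle FOXA2 regions per 100 kb in PC3, above 95.2% of genes, 9.59 and 8.72 in the other ChIPs, above 99.2% and 99.5%, and 2.62 in NCI-H660, above 99.4%. It also had 3.49 JUN regions per 100 kb in PC3 siNC, above 96.5% of genes, and 20.9 ATAC regions in PC3, above 97.1%. For JUN in LNCaP_FOXA2OE and LNCaP_FOXA2K265R it had 0.872 and 1.74 per 100 kb, above 40.4% and 49.3% of genes. WNT7A had 3.05 JUN regions per 100 kb in PC3 siNC, above 95% of genes, and 0.610 for vehicle FOXA2, above 52.7%. Its 13 H3K27ac regions, 7.94 per 100 kb, were above 82.0%. CCBE1 was above 76.6% of genes for vehicle FOXA2 and 42.3% for JUN in PC3, and in LNCaP_FOXA2K265R its 3.82 JUN regions per 100 kb were above 87.2%. The 3 genes were chosen with such results known, so these ranks are a description.

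In the factor lists, the last 5 kb inside the 50 kb limit held 8 regions at PTHLH and 4 at CCBE1, and the first 5 kb outside held 12 and 6. The strong FOXA2 region lay 48987 bp from the gene body, just inside. Just outside, 50751 bp from the gene body, JUN after siNC had a region at chr12:28176417-28176862 with a score of 3815, which was listed with a score of 743 after siFOXA2. FOXA2 was listed there at 394 after vehicle, 469 after ORY-1001 and 333 after C12, and FOSL1 at 284 after siNC. At CCBE1 the vehicle FOXA2 region that was lost after both inhibitors, with a score of 90, lay 46659 bp from the gene body. The regions just outside were FOXA2 regions of the other ChIPs and NCI-H660, with scores of 102 to 567. WNT7A had none within 5 kb of the limit.

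The other genes of the 3 pathways were near the share of all coding genes. A vehicle FOXA2 region of PC3 lay within 50 kb of 11 of 18 other WNT ligands, 3 of 8 WNT7A receptors and co-receptors, 3 of 4 CCBE1 partners and 3 of 4 PTHLH relatives and receptors, 20 of 34 in all (58.8%), against 54.1% of all protein-coding genes. A siNC JUN region lay near 23 of the 34 (67.6%, against 62.8%), and a JUN region lost after siFOXA2 near the same number, 23 (67.6%, against 59.8%). A FOXA2 region lost after ORY-1001 lay near 15 (44.1%, against 40.9%) and 1 lost after C12 near 17 (50%, against 44.7%). In NCI-H660 a region lost after ORY-1001 lay near 6 (17.6%, against 18.3%). The following counts of lost regions stand beside whole-list losses of 63.2% after ORY-1001, 70.4% after C12 and 86.6% for JUN after siFOXA2. ADAMTS3, the protease that CCBE1 assists, had 8 vehicle FOXA2 regions, of which 7 were lost after ORY-1001 and 8 after C12, and 6 JUN regions, of which 5 were lost after siFOXA2. VEGFC, its substrate, had 3 FOXA2 regions, of which 2 were lost after each compound, and 2 JUN regions, both lost. WNT5A, a ligand of noncanonical WNT signaling, had 5 FOXA2 regions, of which 2 were lost after each compound, and 6 JUN regions, of which 5 were lost. The receptor gene PTH1R had 1 FOXA2 region, lost after both compounds, and PTH2R had 5, of which 1 was lost after ORY-1001 and 4 after C12.

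The genes whose numbers of regions over the 22 lists were most like those of the 3 members were found by Pearson correlation of the log2 ratio of observed to expected number. For WNT7A they were APCDD1L (0.84), EEA1 (0.82) and PSMD12 (0.81), for CCBE1 ARHGEF35 (0.84), GJA1 (0.84) and C18orf63 (0.83), and for PTHLH GJA10 (0.83), NPAS3 (0.82) and SPINK7 (0.78). APCDD1L had 2 vehicle FOXA2 and 5 siNC JUN regions in PC3 and no FOXA2 region in NCI-H660, where WNT7A had 1, 5 and 0. The lists share cell lines and differ in length, so these values describe likeness over these lists only.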

How the data were processed

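Regions from ChIP-seq and ATAC-seq were taken as deposited. Per the methods and the submitters' processing notes, reads were checked with FastQC 0.11.9, aligned to hg19 with BWA 0.7.17-r1188, sorted with SAMtools 1.9 and called with MACS2 2.1.4. The deposited score, given by the authors in 20 of 22 lists, is a peak-caller value. The LNCaP JUN siNC and LNCaP_FOXA2OE FOXA2 lists hold coordinates alone. All coordinates fell within the hg19 chromosomes. Read depth is unknown, so list length (1538 to 210960 regions) is all that shows it. Genes came from GENCODE 44 lifted to build 37. Regions of 2 lists were called shared, or kept, with an overlap of at least 1 bp. Sites are merged FOXA2, JUN and FOSL1 regions. Named sites were those with a PC3 vehicle FOXA2 region, the highest-scoring of each other factor list and the nearest to a start. Genes alike needed at least 10 regions. No test was possible with 1 list per arm. Alternatives were windows of 25 and 100 kb, an overlap of 50% of both regions, a gap of up to 500 bp, a score of at least 30, equal numbers of top-scoring regions, other motif settings and leaving out a list. Overlap code was tested on simulated data. Python 3.11.15, pandas 2.3.3, NumPy 2.4.6, SciPy 1.17.1 and Matplotlib 3.10.9 were used. The 3 members, the gene lists and the alternatives were chosen with earlier results of these data known. The sequences of 4 further windows are not reported here.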

Additional observations from a re-analysis of the deposited data

Results flagged for a closer look

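The change in the number of JUN regions from siNC to siFOXA2 went in opposite directions in PC3 and NCI-H660 at all 3 loci. At WNT7A the change was -3 in PC3 (5 to 2) and 2 in NCI-H660 (0 to 2). At CCBE1 it was -2 in PC3 (2 to 0) and 4 in NCI-H660 (0 to 4). At PTHLH it was -2 in PC3 (4 to 2) and 4 in NCI-H660 (1 to 5). With 1 list per arm the difference was not tested. The whole JUN list shortened from 23890 to 4081 regions in PC3 and lengthened from 18401 to 59452 in NCI-H660, and the part of list length in these counts was not tested.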

How the results depend on the processing

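Of 105 alternative values for 17 results, 97 stayed within the interval of the reported share or, for the number of regions, within 1.5 times of it, and 8 moved. The intervals of shares over so few regions span much of the range, so a value inside one is no sign of stability. No whole-list share was computed for equal numbers of top-scoring regions. With equal numbers of top-scoring regions, the share kept after C12 in PC3 went from 25 to 66.7% (2 of 3 regions), that after ORY-1001 from 37.5 to 66.7% (also 2 of 3), that of PC3 JUN from 27.3 to 50% (3 of 6) and that kept from LNCaP_FOXA2OE to LNCaP_FOXA2K265R from 20 to 0%. An overlap of at least 50% of both regions gave 0% for the latter, 5.63% (from 12.7%) for PC3 ATAC regions shared with NCI-H660, 0% (from 62.5%) for FOXA2 regions with H3K27ac and 62.5% (from 100%) for FOXA2 regions in both other FOXA2 ChIPs. A gap of up to 500 bp gave 87.5% for FOXA2 regions with H3K27ac and 37.5% for the share kept after C12, which was 16.7% with a window of 25 kb. A window of 100 kb gave 44.4% for the LNCaP share. When either other FOXA2 ChIP replaced vehicle, FOXA2 regions with JUN went from 50 to 25% and 28%, with no whole-list share computed. Forkhead matches went from 87.5 to 25% of FOXA2 regions with TGTTTAC only. Leaving out either other FOXA2 ChIP gave 100%, which was fixed since all 8 regions were in both. Without both, an alternative chosen after seeing the data, 208 of the 261 member regions remained. No share could be given for the 2 LNCaP contrasts from siNC, which had no member region, nor for NCI-H660 JUN with a window of 25 kb. No paired analysis was possible because the labels give no replicate numbers, 20 of 21 groups have 1 list, and the group with 2 has no partner group of 2. Regions are not independent samples, and a region's absence from a list does not show that a factor was absent. The cause of the changes beyond the alternatives' own construction was not tested.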
